A study of Mus musculus with 2 samples.

Results

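Apoe, the gene of apolipoprotein E, was described in cortical microglia of an amyloid mouse model. It was 1 of 31053 genes in the count tables, chosen by name, and was read in barcodes that passed 2 limits: 200 or more detected genes, and no more than 10% of UMIs (unique molecular identifiers, each counting 1 captured RNA molecule) from the mitochondrial genome. The limits kept 317 cells of the library given Visudyne and photoconversion, called photoconversion, and 555 cells of the library given Visudyne without light, called control. Both libraries came from male mice, hemizygous for the 5xFAD transgenes on a C57BL/6J background. 5xFAD mice carry human transgenes with familial Alzheimer's disease mutations, APP among them, under the neuronal Thy1 promoter. In the photoconversion group, 5 uL of the photosensitiser Visudyne was injected into the cisterna magna at 4 months of age and followed by 5 steps of transcranial 689-nm red light, a procedure used to ablate meningeal lymphatic vessels. The control group received the same injection with no light step. Injections were repeated after 3 weeks and cortex was taken 3 weeks later, at a labelled age of 5.5 months. Each library pooled cells of 3 mice, sorted as SYTOX- singlets with CD45 and CD11b but without Ly6G. No group had a second library or mice given neither agent, so every difference below is one between 2 libraries, without a test, and intervals are exact 95% intervals that cover counting error only.

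Apolipoprotein E is the main lipid carrier of brain interstitial fluid. It is secreted, chiefly by astrocytes and, under disease conditions, by microglia, is loaded with cholesterol and phospholipid by ATP-binding cassette transporters and is taken up through lipoprotein receptors. Microglia in resting tissue are marked by homeostatic genes such as P2ry12, a purinergic receptor that guides their processes. Around amyloid plaques they take on a disease-associated program that includes Apoe and Cst7, which encodes cystatin F, an inhibitor of lysosomal cathepsin-type proteases. TREM2, a surface receptor of microglia, binds lipids and lipoproteins and is needed for the later stage of that program in mouse amyloid models.

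In the mm10 assembly (GRCm38) Apoe (ENSMUSG00000002985) lies on the minus strand of chromosome 7, from 19696109 to 19699188, and its GENCODE transcript Apoe-201 has 4 exons. Tomm40 lies 2124 bp upstream in transcription, and the apolipoprotein genes Apoc1, Apoc4 and Apoc2 follow downstream, at distances of 3448, 14629 and 18167 bp. Cst7 (ENSMUSG00000068129) lies on chromosome 2, from 150570415 to 150578944 on the plus strand, and P2ry12 (ENSMUSG00000036353) on chromosome 3, from 59216272 to 59262871 on the minus strand. The RefSeq start site of P2ry12 lies upstream of that gene model, at 59262985. Over all kept cells Apoe counts went with those of Cst7 and against those of P2ry12. The 250 bases before the RefSeq start site of each gene are therefore shown. They are chr7:19699189-19699438 (minus strand), chr2:150570165-150570414 (plus strand) and chr3:59262986-59263235 (minus strand) of GRCm38.p6, read 5′ to 3′, with motif matches in capitals.
Apoe: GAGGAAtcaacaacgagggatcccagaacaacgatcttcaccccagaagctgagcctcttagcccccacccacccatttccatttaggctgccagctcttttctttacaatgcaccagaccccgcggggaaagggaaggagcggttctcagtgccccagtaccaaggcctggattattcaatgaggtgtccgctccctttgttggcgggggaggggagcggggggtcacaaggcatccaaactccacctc
Cst7: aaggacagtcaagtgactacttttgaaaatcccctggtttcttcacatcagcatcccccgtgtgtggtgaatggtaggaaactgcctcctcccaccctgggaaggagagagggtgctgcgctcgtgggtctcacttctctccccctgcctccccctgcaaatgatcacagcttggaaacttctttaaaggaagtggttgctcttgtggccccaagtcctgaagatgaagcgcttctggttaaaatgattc
P2ry12: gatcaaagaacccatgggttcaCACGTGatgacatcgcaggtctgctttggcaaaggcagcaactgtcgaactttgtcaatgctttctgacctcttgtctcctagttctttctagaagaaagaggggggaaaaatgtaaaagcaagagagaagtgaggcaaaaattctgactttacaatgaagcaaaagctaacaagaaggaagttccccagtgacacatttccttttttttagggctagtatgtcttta
Both strands were searched for the PU.1 core GAGGAA, the E-box palindrome CACGTG, the AP-1 site TGANTCA, the GC box GGGCGG and the TATA box TATAAA. The Apoe stretch held 1 match, GAGGAA at its 5′ end, and the P2ry12 stretch held 1, CACGTG. The Cst7 stretch held 0. Of 27025 gene promoters of the same length, 23.1% held GAGGAA and 6.05% held CACGTG. The AP-1 site was held by 1856 of them, the GC box by 8901 and the TATA box by 3504. A match describes letters and no binding. GC content was 57.2% in the Apoe, 51.6% in the Cst7 and 41.6% in the P2ry12 stretch, against a median of 52% over those promoters.

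Each library held 2000 barcodes, with 2038693 UMIs in photoconversion and 2672902 UMIs in control. Kept photoconversion cells were deeper, with a median of 3410 UMIs against 2670 UMIs in control. The libraries listed 27 barcode sequences in common, 11 of them kept photoconversion cells and 0 of them kept control cells. Those 11 cells had 1319 to 29298 UMIs in photoconversion, and the same sequences had 65 to 102 UMIs in control. Microglia markers summed to 44728 CPM (UMIs scaled to a total of 1000000 over the cells summed) in photoconversion and 46794 CPM in control, with 0 of the 9 markers absent from either library. Genes of neutrophils, lymphocytes and red blood cells had 0 to 4 UMIs per list in the kept cells of each library. Monocyte markers had 29 UMIs in photoconversion and 184 UMIs in control, and border macrophage markers 18 and 96 UMIs. In control 6 kept cells with at least 3 border macrophage UMIs held Apoe at 14133 CPM (13175 to 15142). Doublets were not called.

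Apoe was among the genes with most UMIs and most uneven spread in these cells. Without scaling by transcript length, it ranked 6th of 12939 detected genes in photoconversion and 11th of 13608 in control by summed UMIs. A photoconversion cell held a median of 9 Apoe UMIs, with quartiles of 3 and 66 and a highest cell of 1106 UMIs. A control cell held a median of 4 UMIs, with quartiles of 1 and 21 and a highest cell of 973 UMIs. The richest 10% of cells, 32 in photoconversion and 56 in control, held 59.2% of Apoe UMIs in photoconversion and 68.7% in control. Scaled to the depth of the cell, the median was 30.4 per 10000 UMIs in photoconversion and 17.7 in control. The highest values were 1617 per 10000, or 738 of 4564 UMIs in 1 photoconversion cell, and 823 per 10000 in control.

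With each cell thinned to 1000 UMIs, which left out 45 photoconversion and 116 control cells, the median was 3 Apoe UMIs in photoconversion and 2 in control. The Fano factor (variance over mean, 1 for pure counting) of the thinned counts was 30.2 in photoconversion, the highest of 97 genes with a mean of at least 2 UMIs, and 20.3 in control, the third of 95. Medians over these genes were 2.13 in photoconversion and 2.36 in control. Next to Apoe stood Malat1, a nuclear RNA, with 26.4 in photoconversion, and the highest in control was Cst3, the gene of cystatin C, with 26.1. An Apoe UMI was seen in 92.1% of photoconversion cells (88.6 to 94.8%) and 85.8% of control cells (82.6 to 88.6%), and after thinning in 85.3% (80.5 to 89.3%) and 77.2% (73.0 to 81.1%). Background barcodes, with fewer than 100 genes and medians of 57 UMIs in photoconversion and 79 UMIs in control, held an Apoe UMI in 39.7% and 40.3% of cases. No share of expressing cells is read from these values.

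**Figure D1:**
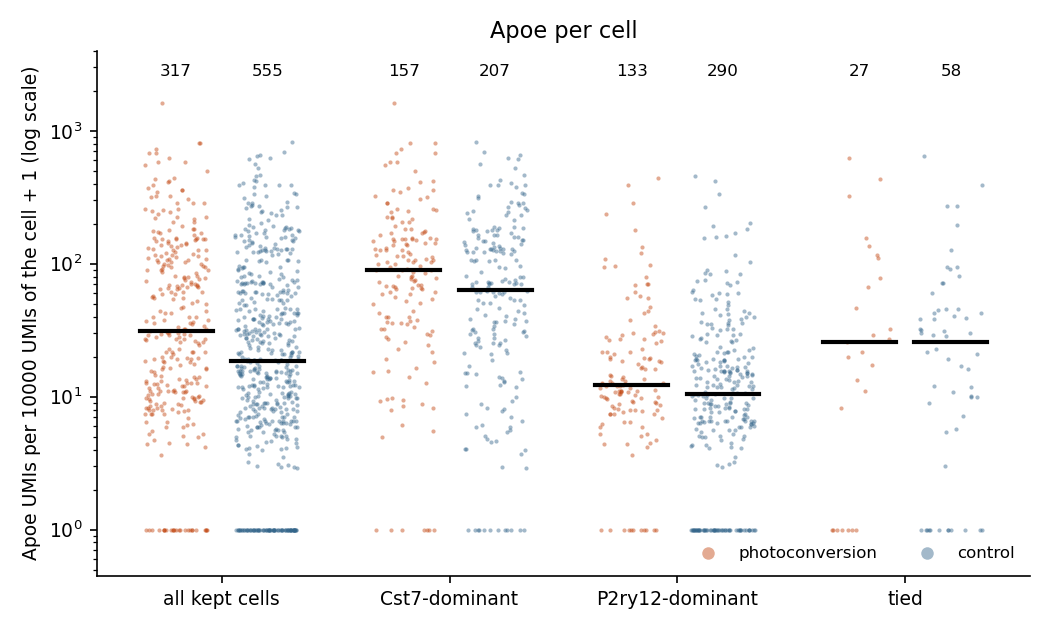
Apoe UMIs per 10000 UMIs of the cell plus 1, on a log axis, in photoconversion (left of each pair) and control (right) for all kept cells, cells with more Cst7 than P2ry12 UMIs, cells with more P2ry12 than Cst7 UMIs and tied cells. Each point is a cell, black lines are medians, numbers are cells. In both libraries the Cst7-dominant median stands above the P2ry12-dominant one, and the classes overlap. The highest cells stand at 1617 and 823 per 10000 in the Cst7-dominant class and at 442 and 459 in the P2ry12-dominant class.

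Summed over kept cells, Apoe stood at 11257 CPM (11103 to 11412) in photoconversion, from 20444 UMIs, and at 8571 CPM (8454 to 8688) in control, from 20764 UMIs. The ratio of photoconversion to control was 1.31 (1.29 to 1.34). Of 4009 genes with at least 100 UMIs in the libraries together, 7.36% were higher by at least 25% in photoconversion and 16.3% were lower by at least 20%, and Apoe held place 194 from the top. The ratio was 1.29 without the barcodes found in both libraries and 1.31 in the microglia-like clusters alone. It was largest, at 1.54, when each cell weighed the same, and smallest, at 1.18, both in cells with fewer than 3 marker UMIs of any other cell type and when photoconversion classes were given control proportions. For that last ratio the classes below were weighted to their share of control UMIs. Cst7-dominant cells held 72.1% of photoconversion UMIs against 60.6% of control UMIs. The weights covered the Cst7-dominant, P2ry12-dominant and tied classes alone, and neither depth nor makeup within a class. The part of makeup in the difference between the libraries was not tested.

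Apoe was higher in cells where Cst7 prevailed than in cells where P2ry12 prevailed, in both libraries. Cst7-dominant cells, with more Cst7 than P2ry12 UMIs, numbered 157 of 317 in photoconversion (49.5%, 43.9 to 55.2%) and 207 of 555 in control (37.3%, 33.3 to 41.5%). P2ry12-dominant cells numbered 133 (42.0%, 36.5 to 47.6%) and 290 (52.3%, 48.0 to 56.5%), and 27 and 58 cells were tied. In photoconversion Apoe stood at 14310 CPM (14106 to 14517) in Cst7-dominant cells and 2975 CPM (2821 to 3136) in P2ry12-dominant cells, a ratio of 4.81 (4.55 to 5.08). In control it stood at 12076 CPM (11899 to 12255) and 2993 CPM (2877 to 3113), a ratio of 4.03 (3.87 to 4.21). The order of the libraries in this ratio turned with classes set after thinning. It also turned without cells with 3 or more marker UMIs of another type, at 3.64 in photoconversion and 4.00 in control. With classes that needed a lead of 3 or more UMIs it turned too, at 5.25 and 5.53. The difference between the libraries was not tested.

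Cst7-dominant cells held 91.7% of Apoe UMIs in kept photoconversion cells and 85.3% in kept control cells. Of genes with at least 100 UMIs over both classes of a library, 5.29% in photoconversion and 4.03% in control were higher by at least 2-fold in Cst7-dominant cells, and Apoe held place 17 of 1871 and place 21 of 2479. The classes differed in depth, with medians of 5852 UMIs in Cst7-dominant and 2739 UMIs in P2ry12-dominant cells of photoconversion, and 4655 and 2206.5 UMIs in control. Where classes were set after thinning each cell to 1000 UMIs, the ratio was 2.63 in photoconversion and 3.55 in control. Where classes were kept and Apoe was counted in thinned cells, it was 6.05 and 4.25. Without the 10 Apoe-richest cells of each library it was 3.87 and 3.15.

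**Figure D2:**
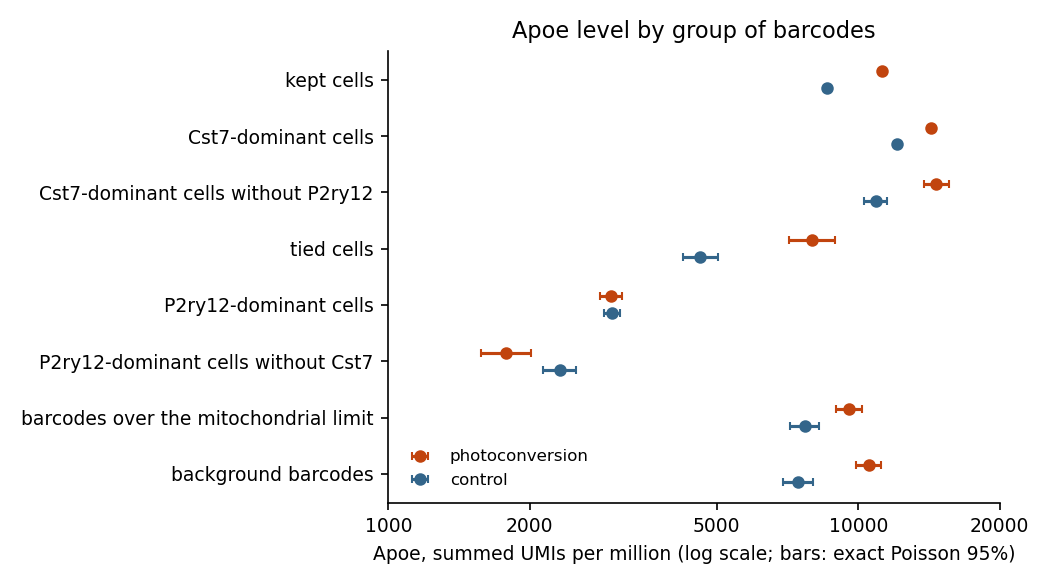
Apoe in CPM (log axis) for groups of barcodes, photoconversion above control in each pair; bars are exact Poisson 95% intervals. P2ry12-dominant cells lie at 2975 CPM and 2993 CPM, below background barcodes at 10524 CPM and 7448 CPM, and Cst7-dominant cells lie above them.

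In cells with 1 transcript and not the other, Apoe was higher where Cst7 was the one present. Cst7-dominant cells without a P2ry12 UMI, 32 in photoconversion and 50 in control, stood at 14669 CPM (13802 to 15576) and 10888 CPM (10287 to 11516). Of the 1068 Apoe UMIs in photoconversion 738 came from 1 cell, which held 18 Cst7 UMIs. Without the richest cell of each library these cells stood at 4836 CPM (4328 to 5387) in photoconversion and 7946 CPM (7420 to 8500) in control, so the order of the libraries turned. P2ry12-dominant cells without a Cst7 UMI, 59 and 149, stood at 1781 CPM (1572 to 2010) and 2320 CPM (2137 to 2514), and at 1627 and 1818 CPM without the richest cell. The ratio between the 2 kinds of cells was 8.24 in photoconversion and 4.69 in control, and 2.97 and 4.37 without the richest cells.

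Among cells with at least 5 UMIs of both genes together, 242 in photoconversion and 393 in control, Apoe was low where P2ry12 prevailed and high where Cst7 prevailed beside some P2ry12. In photoconversion it stood at 1288 CPM with no Cst7, 2909 CPM above 0 and up to 25% Cst7, 4758 CPM up to 50%, 13185 CPM up to 75%, 14782 CPM below 100% and 20457 CPM with Cst7 alone. In control these steps stood at 1809, 1944, 6021, 8613, 14239 and 10543 CPM. Without the richest cell of each step the values were 1071, 1356, 3797, 12415, 13838 and 4465 CPM in photoconversion. In control they were 1151, 1623, 4609, 8035, 13329 and 5622 CPM. The last step, of 12 and 24 cells, then lay below the step before it in both libraries. Its cells had a median of 34.8 Apoe UMIs per 10000 in photoconversion and 47.6 in control, against 106 and 75.2 in the step before.

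**Figure D3:**
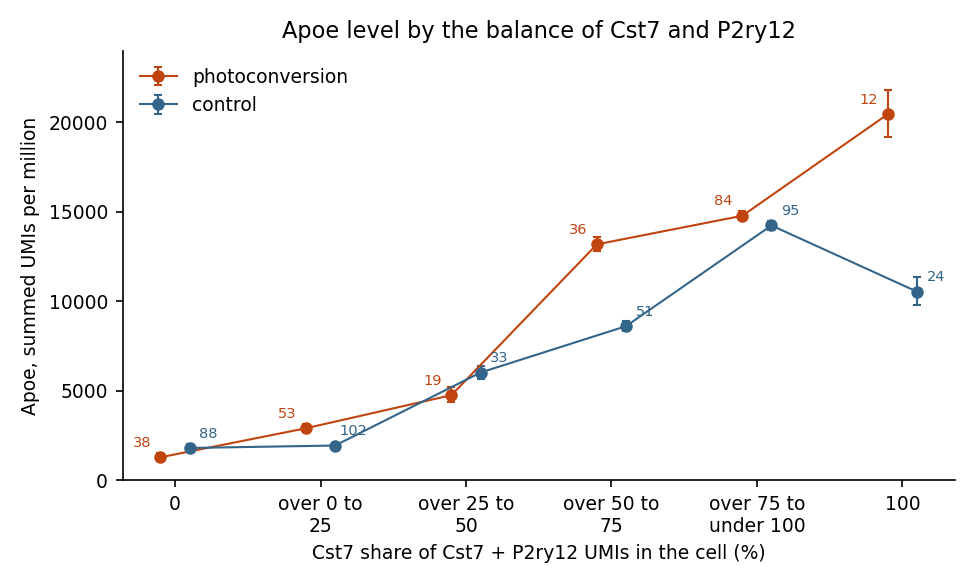
Apoe in CPM against the Cst7 share of Cst7 plus P2ry12 UMIs per cell, for cells with at least 5 such UMIs, in photoconversion and control; bars are exact Poisson 95% intervals and numbers are cells. Photoconversion runs from 1288 CPM to 20457 CPM, the last value being 4465 CPM without 1 cell, and control peaks at 14239 CPM before 10543 CPM in cells with Cst7 alone.

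Within Cst7-dominant cells the ratio of photoconversion to control was 1.18 (1.16 to 1.21), and within P2ry12-dominant cells it was 0.994 (0.930 to 1.06). Of genes measured in these classes, 8.22% and 7.90% were higher by at least 25% in photoconversion, and 11.9% and 16.5% were lower by at least 20%, so Apoe passed these limits in neither class. Without the richest cell of each class and library, chosen after seeing the data, the ratio was 1.19 (1.16 to 1.21) in Cst7-dominant cells and 0.829 (0.769 to 0.892) in P2ry12-dominant cells. In the P2ry12-dominant class other settings ran from 0.855, with 10% of UMIs taken as background, to 1.55, with classes set in thinned cells, so its direction was not stable. A Cst7-dominant cell held a median of 89.0 Apoe UMIs per 10000 in photoconversion and 62.7 in control. A P2ry12-dominant cell held 11.2 in photoconversion and 9.51 in control. When cells weighed the same the ratios were 1.31 in Cst7-dominant and 1.26 in P2ry12-dominant cells. Tied cells stood at 7969 CPM in photoconversion and 4616 CPM in control, with medians of 24.5 and 24.8 per 10000, so the sums and the middle of the cells differed there.

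The higher Apoe sum of Cst7-dominant photoconversion cells lay at middle depths. Between 2500 and 5000 UMIs it stood at 24602 CPM in 35 photoconversion cells and 10304 CPM in 44 control cells, and between 5000 and 10000 UMIs at 17201 CPM in 28 cells and 10616 CPM in 38 cells. At 10000 UMIs and over it stood at 12535 CPM in 57 photoconversion cells and 13100 CPM in 63 control cells, and below 1000 UMIs at 5675 and 7717 CPM. Without the richest cell of each library, the 738-UMI cell among them, the range from 2500 to 5000 UMIs stood at 19637 CPM in photoconversion and 9440 CPM in control. Cst7-dominant cells stood above P2ry12-dominant cells in each depth range of both libraries except below 1000 UMIs in photoconversion, where 15 Cst7-dominant cells stood at 5675 CPM (4330 to 7305) and 14 P2ry12-dominant cells at 6010 CPM (4586 to 7736). Without the richest cell of each class that order turned, to 4588 CPM in Cst7-dominant and 3939 CPM in P2ry12-dominant cells. P2ry12-dominant photoconversion cells of 5000 to 10000 UMIs also rested on 1 cell, with 4182 CPM in all and 1953 CPM without it, against 4337 and 3616 CPM in control.

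**Figure D4:**
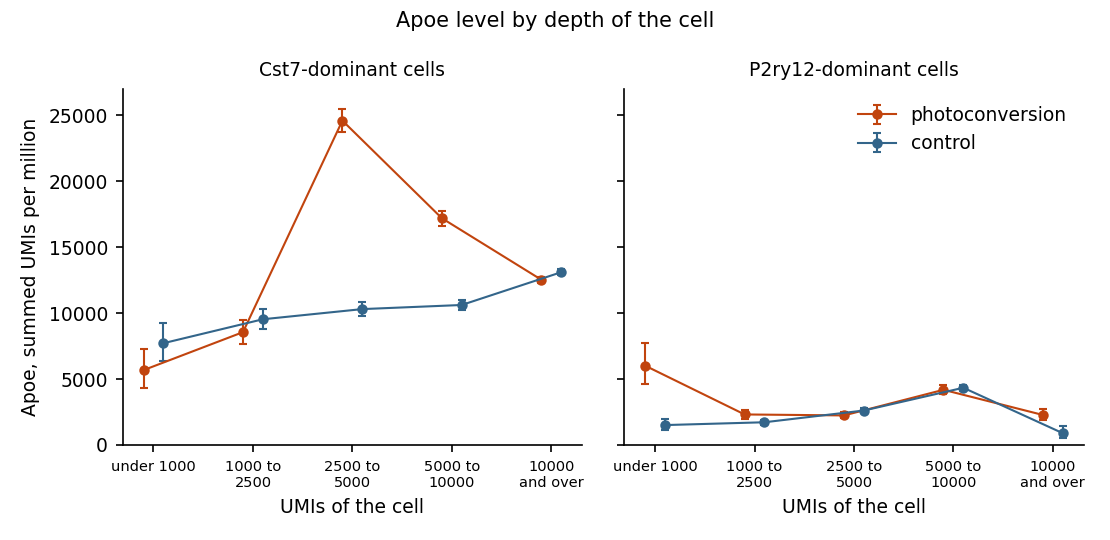
Apoe in CPM against the depth of the cell, for Cst7-dominant (left panel) and P2ry12-dominant cells (right panel) in photoconversion and control; bars are exact Poisson 95% intervals. Photoconversion stands highest at 24602 CPM for Cst7-dominant cells of 2500 to 5000 UMIs, 19637 CPM without 1 cell, and the libraries stand at 12535 CPM and 13100 CPM in the deepest cells.

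Marker transcripts of other cell types were found beside Apoe in both classes. Astrocytes express Apoe strongly, and at least 3 UMIs of 11 astrocyte markers were found in 34 of 157 Cst7-dominant photoconversion cells (21.7%) and 28 of 207 control cells (13.5%). Those cells stood at 16652 CPM of Apoe in photoconversion and 11330 CPM in control, against 13403 and 12267 CPM in the other Cst7-dominant cells. P2ry12-dominant cells with astrocyte markers stood lower than the others, at 1230 against 3156 CPM in photoconversion and 1736 against 3047 CPM in control. Cst7-dominant cells with oligodendrocyte markers numbered 25 in photoconversion and 37 in control. Without them the ratio of photoconversion to control in that class was 1.12 (1.09 to 1.14). Mural cell markers summed to 163 CPM in Cst7-dominant photoconversion cells and 10.9 CPM in control ones, and endothelial markers to 55.6 CPM in P2ry12-dominant photoconversion cells and 468 CPM in control ones. Without the cells with 3 or more marker UMIs of any other type, 105 photoconversion and 147 control cells were left, at 12899 CPM (12644 to 13157) and 12740 CPM (12511 to 12972), a ratio of 1.01 (0.986 to 1.04). In P2ry12-dominant cells the same step gave a ratio of 1.11 (1.04 to 1.19). Cells with such markers were deeper, with a median of 11148 UMIs in photoconversion and 9006 UMIs in control against 5111 and 3899 UMIs in the other Cst7-dominant cells. Over all kept cells the astrocyte list summed to 254 CPM in photoconversion and 305 CPM in control, with Aqp4 absent from photoconversion and Ntsr2 from control. The part of these transcripts in the Apoe difference was not tested.

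The richest cells belonged mostly to the Cst7-dominant class. Of the richest 10% by Apoe UMIs, 31 of 32 were Cst7-dominant in photoconversion (96.9%, 83.8 to 99.9%) and 50 of 56 in control (89.3%, 78.1 to 96.0%). By UMIs per 10000 they were 26 of 32 and 43 of 56. That scaling divides by the depth of the cell, while the classes still differed in depth. Of all kept cells 49.5% were Cst7-dominant in photoconversion and 37.3% in control. Some P2ry12-dominant cells were nonetheless rich: 11 of 133 in photoconversion and 23 of 290 in control exceeded the median of the Cst7-dominant cells of their library. The 10 richest P2ry12-dominant cells held 853 of 1391 Apoe UMIs of the class in photoconversion (61.3%) and 1252 of 2515 in control (49.8%). They carried 41 Cst7 and 88 P2ry12 UMIs in photoconversion, and 27 Cst7 and 65 P2ry12 UMIs in control. The richest of them had 358 Apoe UMIs of 8091 in photoconversion, beside 2 Cst7 and 6 P2ry12 UMIs, and 250 of 5442 in control, beside 2 Cst7 and 3 P2ry12 UMIs.

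Apoe was abundant in background barcodes. What these barcodes held was not tested: neutrophil markers had 645 UMIs there in photoconversion and 165 UMIs in control, and 28 and 4 barcodes held 3 or more of them. It stood at 10524 CPM (9904 to 11172) in 1518 photoconversion barcodes and 7448 CPM (6923 to 8003) in 1125 control barcodes, a ratio of 1.41 (1.29 to 1.55). Kept cells stood at 1.07 times background in photoconversion (1.01 to 1.14) and 1.15 times in control (1.07 to 1.24). Cst7-dominant cells stood at 1.36 times (1.28 to 1.45) and 1.62 times (1.51 to 1.75). P2ry12-dominant cells stood at 0.283 times (0.261 to 0.306) and 0.402 times (0.370 to 0.437), and those without Cst7 at 0.169 times and 0.311 times. P2ry12-dominant cells thus held less Apoe per UMI than barcodes under the cell limit, in each library. The comparison of all kept cells with background turned with its definition in photoconversion: the ratio was 0.811 against background barcodes of at most 10% mitochondrial UMIs and 0.391 against barcodes of at least 100 but under 200 genes. In photoconversion 3 of those 90 barcodes held 486 of their 632 Apoe UMIs. Their level was 28826 CPM, and 7227 CPM without the 3. For Cst7-dominant cells these ratios were 1.03 and 0.496. In control the same ratios were 1.002 and 1.39 for kept cells and 1.41 and 1.96 for Cst7-dominant cells.

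Microglia markers stood at 53783 CPM in P2ry12-dominant photoconversion cells and 56256 CPM in control ones, against 25345 and 29004 CPM in background. Astrocyte markers stood at 227 and 193 CPM in P2ry12-dominant cells, or 8.98% and 5.23% of their background level of 2526 and 3684 CPM. Oligodendrocyte markers stood at 2.96% and 3.69% of their background level of 4258 and 3614 CPM, with 46 and 45 background barcodes holding 3 or more of their UMIs. Apoe in the same cells stood at 28.3% and 40.2% of its background level. Other lists lay on both sides of it. Endothelial markers stood at 81.1% and 586%, from 7 and 8 background UMIs. Border macrophage markers stood at 10.9% and 59.6%, from 2 background UMIs in each library. Monocyte markers stood at 15.8% and 32.8%, and neuron markers at 7.65% and 5.11%. Per UMI of Cst3, which microglia express at a high level, Apoe had 0.328 UMIs in Cst7-dominant, 0.0363 in P2ry12-dominant and 0.253 in background barcodes of photoconversion. In control these were 0.283, 0.0370 and 0.165 UMIs. Cst3 itself differed between the classes, at 43676 CPM in Cst7-dominant and 82010 CPM in P2ry12-dominant photoconversion cells. Per UMI of Ctsd, the gene of cathepsin D, Cst7-dominant cells lay below background instead, with 0.659 against 0.730 Apoe UMIs in photoconversion and 0.524 against 0.545 in control. Per UMI of C1qa, a complement gene, they lay below it in photoconversion, with 1.54 against 1.91, and above it in control, with 1.34 against 1.19. P2ry12-dominant cells lay below background per UMI of each of these genes in both libraries. Free RNA as a source of the Apoe UMIs of P2ry12-dominant cells was not tested. When 10% of each cell's UMIs were taken to have the background makeup, the Cst7-dominant over P2ry12-dominant ratio was 6.90 in photoconversion and 5.04 in control.

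Clusters of kept cells, built without Apoe, varied in its level. Apoe stood highest in a deep cluster of 93 photoconversion and 123 control cells, microglia-like with Cst7 at 4544 and 4516 CPM, where it had 14129 CPM (13912 to 14348) and 12645 CPM (12453 to 12840). It stood lowest among microglia-like clusters in one with P2ry12 at 3305 and 3673 CPM, of 62 and 125 cells, with 2494 CPM (2317 to 2680) and 2317 CPM (2188 to 2452). A shallow microglia-like cluster with P2ry12 at 4927 and 5439 CPM, of 67 and 145 cells, had 9847 CPM (9324 to 10392) in photoconversion and 4416 CPM (4130 to 4717) in control. Cst7 there also differed, at 1717 CPM in photoconversion and 554 CPM in control, and 8 and 7 of its cells were Cst7-dominant. No sum was taken without its richest cell. The fourth, with Cst7 at 4708 and 3561 CPM, had 10335 CPM (9892 to 10792) and 5770 CPM (5500 to 6051). An unnamed cluster led by contractile and mural genes such as Mustn1, Cald1 and Myl9, of 25 and 40 cells, had 4846 and 4649 CPM. An unnamed cluster led by Hp and Ifitm6, seen in 8 control cells, had 6533 CPM, and an endothelial-like cluster of 2 and 6 cells had 1950 and 3558 CPM. The libraries lay closer together in the highest and the lowest of these microglia-like clusters than in the other two.

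Of the 12 genes whose values were most like those of Apoe across cells, 7 were on the lists of disease-associated genes and 5 were not. Those lists, chosen with earlier results of these data known, held 19 of the 1910 genes ranked. Likeness was the Pearson correlation of log-scaled UMIs per 10000 over the 317 photoconversion and 555 control cells, for 1910 genes with at least 100 UMIs in each library. The cells of a library share its free RNA and vary in depth, so r is a description. Cst7 came first, with r of 0.50 in photoconversion and 0.43 in control, and Lyz2, the gene of lysozyme, second with 0.42 and 0.44. Then came Ank, a membrane transporter of pyrophosphate, with 0.40 and 0.38, the receptor kinase Axl with 0.39 and 0.38, and the growth factor Igf1 with 0.35 and 0.37. Cd52, a glycoprotein of leukocytes, Itgax, the integrin alpha X chain, and Crlf2, a cytokine receptor, had r of 0.30 to 0.34 in photoconversion and 0.34 to 0.38 in control. Lpl, lipoprotein lipase, had 0.37 and 0.28, the growth factor Csf1 0.36 and 0.30, the receptor modulator Ramp1 0.31 and 0.33, and the lysosomal membrane gene Cd63 0.37 and 0.26.

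At the other end stood Tmem119, a homeostatic surface gene, with r of -0.35 in photoconversion and -0.32 in control, and Ltc4s, leukotriene C4 synthase, with -0.32 and -0.25. Ecscr had -0.27 and -0.24, and Cst3 -0.18 and -0.29. Adgrg1, Fam105a and the selectin ligand Selplg followed, between -0.24 and -0.18 in photoconversion and -0.23 and -0.18 in control. P2ry12 itself had -0.17 and -0.23. The median over all 1910 genes was 0.052 in photoconversion and 0.056 in control, and r exceeded 0.3 for 27 genes in photoconversion and 11 in control. Positive r was common, at 1388 of the 1910 genes in photoconversion and 1473 in control, and ribosomal protein genes had it in 85 and 87 of 88 cases. The 8 Trem2-independent disease-associated genes had positive r in both libraries, with medians of 0.26 and 0.21, as had the 11 measured Trem2-dependent genes, with medians of 0.33 and 0.26. Given the depth of the cell, 747 and 794 of all genes had positive r. There 8 and 6 of the Trem2-independent and 11 and 9 of the Trem2-dependent genes did, the exceptions in control being Cstb, Tyrobp, Trem2 and Cd9. In thinned cells Cstb alone of these genes had negative r, -0.064 in photoconversion. Clec7a, a further gene of that list, is not analysed here. Of 14 homeostatic genes 1 and 0 had positive r, with medians of -0.070 and -0.15.

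**Figure D5:**
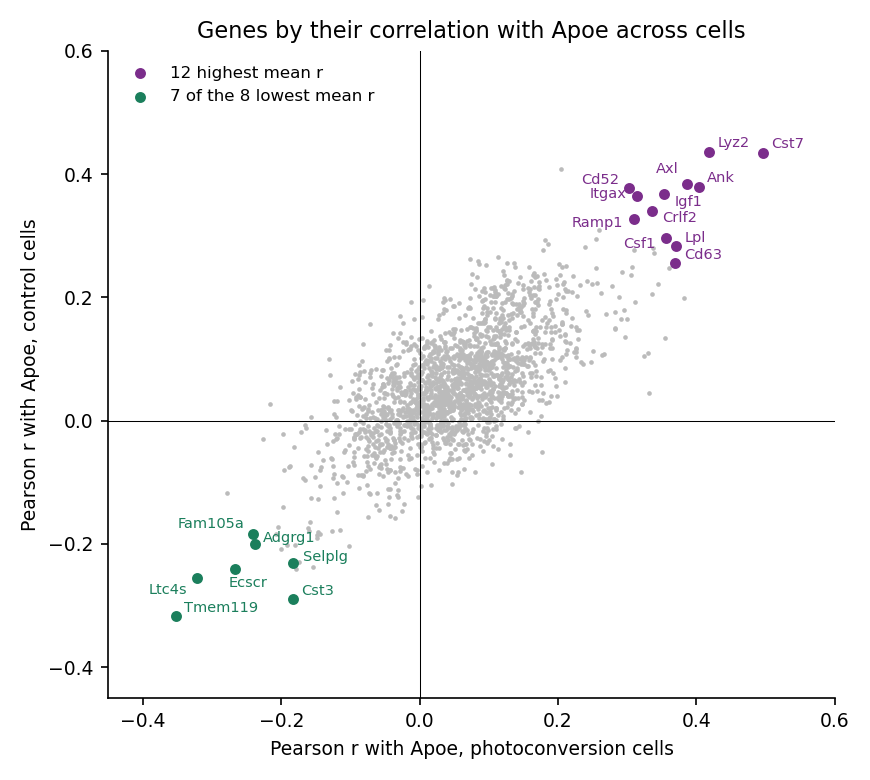
Pearson r with Apoe across cells in photoconversion (x axis) and control (y axis) for 1910 genes (grey), with the 12 highest and 7 of the 8 lowest by mean r named. Cst7, at 0.50 and 0.43, and Lyz2 lie farthest to the upper right, and Tmem119, at -0.35 and -0.32, lies at the lower left.

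The leading genes depended on the split into classes. In Cst7-dominant cells alone 2 of the 12 leading genes, Lyz2 and Crlf2, stayed among the first 12, and lysosomal cathepsins such as Ctsl, Ctss and Ctsd came up. There Lyz2 had r of 0.47 in photoconversion and 0.40 in control, Crlf2 0.40 and 0.45, and Cst7 0.27 and 0.18. The listed homeostatic genes had positive r there, except Tmem119 in photoconversion and Tmem119 and Cst3 in control. The median over all genes was 0.053 and 0.051. P2ry12 had 0.29 and 0.22 in Cst7-dominant cells against -0.17 and -0.23 over all kept cells. Csf1r, the growth factor receptor of microglia, had 0.43 and 0.28 against -0.024 and -0.077. In P2ry12-dominant cells 5 of the 12 stayed, P2ry12 had -0.26 and -0.20, and Lyz2 0.13 and 0.28. Thinned to 1000 UMIs, 7 of the 12 stayed, with Cst7 at 0.46 and 0.34 and Tmem119 at -0.44 and -0.31. The first 12 of photoconversion alone and of control alone had 6 genes in common.

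Other apolipoproteins were nearly absent. Apoc1 had 1 UMI in photoconversion and 12 in control, Apoc4 6 and 12, Apoc2 0 and 2, Apod 12 and 34, and Clu, the gene of apolipoprotein J, 27 and 39. None of the 8 listed members reached 100 UMIs in the libraries together, against 20444 and 20764 UMIs of Apoe. Of the other neighbours, Tomm40, a mitochondrial import channel, stood at 37.4 CPM in photoconversion and 45.8 CPM in control, and Clptm1 at 93.1 and 103 CPM. These UMIs were not scaled by transcript length.

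Of 44 genes in 5 lipoprotein lists, 22 had at least 100 UMIs in the libraries together. Of these, 1 was higher by at least 25% in photoconversion and 1 lower by at least 20%, against 7.36% and 16.3% of all genes. The higher one was Fabp5, a fatty acid binding protein, at 280 CPM in photoconversion and 213 CPM in control, a ratio of 1.32 (1.16 to 1.49). The lower one was Pltp, a phospholipid transfer protein, from 42 and 84 UMIs, a ratio of 0.667 (0.449 to 0.977). Pltp was among the leading genes of the endothelial-like cluster of 2 photoconversion and 6 control cells, and endothelial markers summed to 138 CPM in kept photoconversion cells and 232 CPM in kept control cells. Their part in the Pltp value was not tested. Of the transporters that lipidate Apoe, Abca1 stood at 54.5 and 52.8 CPM summed over kept cells. Abcg1 had 87 UMIs in photoconversion and 109 UMIs in control, a ratio of 1.06 (0.794 to 1.42). Within P2ry12-dominant cells Abca1 was the 1 measured member of the lipidation list. It was higher by at least 25% in photoconversion there, with a log2 ratio of 0.41, as were 7.90% of all genes. Among receptors, Trem2 stood at 5641 CPM in photoconversion against 5282 CPM in control (ratio 1.07, 1.04 to 1.10), and Lrp1, which internalises Apoe, at 157 against 136 CPM (ratio 1.16, 0.986 to 1.36). Lrpap1, a chaperone of lipoprotein receptors, stood at 286 and 292 CPM. Nr1h3 (liver X receptor alpha) had 1 and 4 UMIs, and Nr1h2 (liver X receptor beta) stood at 38.0 CPM in both. Mylip, which marks lipoprotein receptors for degradation, stood at 64.4 and 70.6 CPM. Npc2, which carries cholesterol out of lysosomes, stood at 2325 against 2103 CPM (ratio 1.11, 1.06 to 1.15), and Lpl at 466 against 423 CPM (ratio 1.10, 1.01 to 1.21). Median log2 ratios were 0.05 for lipidation, -0.03 for receptors, -0.04 for regulators and 0.06 for lysosomal lipid handling, against -0.06 over all genes.

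Between the classes more of these genes differed. In photoconversion 13 members were measured, of which 4 were higher by at least 2-fold in Cst7-dominant cells and 1 lower, against 5.29% and 9.89% of all genes. In control 16 were measured, of which 4 were higher and 2 lower, against 4.03% and 12.1%. Fabp5 stood at 377 CPM in Cst7-dominant and 27.8 CPM in P2ry12-dominant photoconversion cells, and at 335 and 23.8 CPM in control. Ch25h, cholesterol 25-hydroxylase, stood at 93.9 and 21.4 CPM in photoconversion and 110 and 8.33 CPM in control. Lpl had a ratio of 2.59 (2.10 to 3.21) in photoconversion and 3.80 (3.15 to 4.62) in control, and Lrpap1 of 2.15 and 2.11. Lpcat3, a phospholipid remodelling enzyme, was the lower one in photoconversion, with a ratio of 0.249 (0.171 to 0.362), and had 0.365 (0.265 to 0.501) in control. Abca1 stood at 28.2 CPM in Cst7-dominant and 133 CPM in P2ry12-dominant photoconversion cells, from 37 and 62 UMIs, which together fall below the limit of 100 UMIs, so it was not counted there. In control Abca1 had 40 and 84 UMIs, a ratio of 0.273 (0.182 to 0.402), opposite in direction to Apoe. Lrp1 was lower too, with ratios of 0.560 (0.438 to 0.717) and 0.653 (0.521 to 0.819), while Trem2 had 1.58 and 1.41.

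The disease-associated and homeostatic lists gave the setting of these values. Between libraries 0 of 8 Trem2-independent genes and 4 of 12 Trem2-dependent genes (Axl, Itgax, Spp1 and Gpnmb) were higher by at least 25% in photoconversion, and 2 of 14 homeostatic genes (Csf1r and Fcrls) were lower by at least 20%, against 7.36% higher and 16.3% lower over all genes, so the homeostatic count was near that of all genes. Spp1, osteopontin, had 758 and 334 UMIs, a ratio of 3.03 (2.66 to 3.45). The Apoe ratio of 1.31 (1.29 to 1.34) stood above those of all 8 Trem2-independent genes, which ran from 0.948 for Cstb to 1.13 for B2m. Between classes, 2 of 8 Trem2-independent genes in photoconversion and 3 of 8 in control were higher by at least 2-fold, against 5.29% and 4.03% of all genes, and the Apoe ratios of 4.81 and 4.03 stood above the highest of them, 2.45 for Lyz2 in photoconversion and 2.57 for Cstb in control. Among Trem2-dependent genes 8 of 11 and 7 of 11 were higher. Cst7, which set the classes, is one of them. Itgax had a ratio of 10.7 (5.11 to 27.0) in photoconversion and 10.3 (5.78 to 20.3) in control. Of 14 homeostatic genes, which include the class gene P2ry12, 8 were lower in each library, against 9.89% of all genes in photoconversion and 12.1% in control, with Tmem119 at 0.162 (0.143 to 0.183) in photoconversion and 0.198 (0.177 to 0.220) in control.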

How the data were processed

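Droplet single-cell RNA was read in 2 libraries. The deposited values were whole-number UMI counts for each gene in each barcode. Per the submitters' processing notes, bcl2fastq, Cell Ranger and mm10 were used, and the file headers give Cell Ranger 3.0.2. Removal of doublets is not given in the sources used here, and no doublet caller was run. A table of both libraries together was not used here.

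Apoe was matched by symbol. Summed UMIs were scaled to CPM. Poisson intervals of sums, conditional binomial intervals of ratios and Clopper-Pearson intervals of shares are exact (scipy 1.17.1). Log2 ratios of listed genes had 0.5 counts added. Kept cells were clustered without Apoe in scanpy 1.11.5 with Leiden clustering at a resolution of 0.8 (15 neighbours in 20 components of 2000 variable genes). Naming a cluster for a cell type needed 3 of its markers among its 10 leading genes. The name microglia-like otherwise needed no marker of another type there and microglia markers detected in at least 50% of cells on average. These naming thresholds were set after seeing the data. Correlations used log-transformed UMIs per 10000. The ratio and correlation steps were tested on simulated data.

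Apoe, the gene lists and the markers were chosen with earlier results of these data known. Named genes were Apoe, Cst7, P2ry12, the 12 highest and 8 lowest by mean r, and of each list the 3 measured members with most UMIs and the 2 with the largest log2 ratio. Members named outside that rule, the apolipoproteins and neighbours among them, were chosen after their values were seen, and a few genes that the rule names are not reported here. Each group had 1 library of 3 pooled mice, so no test was made. Alternatives changed the cell filters, weights, depth, classes, background and scaling (edgeR 4.0.16 TMM and RLE factors), and leaving out shared barcodes, other clusters or the richest cell was added after seeing the data.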

Additional observations from a re-analysis of the deposited data

Results flagged for a closer look

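Barcodes with at least 100 but under 200 genes, which enter no comparison of cells, held Apoe at 28826 CPM in photoconversion (90 barcodes) and 6173 CPM in control (215 barcodes). In photoconversion 486 of their 632 Apoe UMIs came from 3 barcodes, with 204 of 579, 153 of 562 and 129 of 581 UMIs. Those 3 barcodes had 7, 2 and 0 Cst7 UMIs, 0 P2ry12 UMIs each, and 2.59%, 17.6% and 28.6% mitochondrial UMIs. Without the 3 richest barcodes of each library the level was 7227 CPM in photoconversion and 5491 CPM in control.

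Barcodes over the mitochondrial limit, also left out of the comparisons, held Apoe at 9559 CPM in photoconversion (75 barcodes) and 7700 CPM in control (105 barcodes).

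The ratio of photoconversion to control lay on opposite sides of 1 in the classes, at 1.18 in Cst7-dominant and 0.994 in P2ry12-dominant cells. The interval of the P2ry12-dominant ratio, 0.930 to 1.06, includes 1. Both ratios lay above 1, with the P2ry12-dominant one higher, without cells that held markers of another type (1.01 and 1.11) and with classes set after thinning (1.15 and 1.55). With equal cell weights they were 1.31 and 1.26. The difference between the ratios was not tested.

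The ratio was 1.35 in Cst7-dominant cells without P2ry12 and 0.768 in P2ry12-dominant cells without Cst7. Without the richest cell of each library these ratios were 0.609 (0.534 to 0.692) and 0.895 (0.760 to 1.05). The direction in Cst7-dominant cells without P2ry12 thus rested on 1 photoconversion cell of 738 Apoe UMIs. The other ratio stayed below 1, but its interval then included 1. The richest cell left out of it in control held 138 Apoe UMIs. The difference was not tested.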

How the results depend on the processing

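No paired analysis was possible because each group had 1 library. The cause of each change below was not tested. The ratio of photoconversion to control over kept cells stayed above 1, between 1.18 and 1.54: 1.23 at no more than 5% mitochondrial UMIs, 1.54 with equal cell weights, 1.48 in thinned cells, 1.18 without cells with other markers, 1.26 without the deepest 5% of cells, 1.37 with TMM and with RLE scaling, and 1.18 at control makeup. The Cst7-dominant over P2ry12-dominant ratio stayed above 2 in both libraries. In photoconversion it was 4.33 without a mitochondrial limit, 6.05 in thinned cells, 3.87 without the 10 richest cells, 3.64 without cells with other markers, 6.90 with 10% of UMIs taken as background, 5.25 with a lead of 3 UMIs and 2.63 with classes set after thinning. In control it was 4.22 at no more than 5% mitochondrial UMIs, 4.58 with equal weights, 4.25 in thinned cells, 3.15 without the 10 richest cells, 4.28 without the deepest cells, 5.04 with background taken off, 5.53 with a lead of 3 UMIs and 3.55 with classes set after thinning.

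Within Cst7-dominant cells the ratio of photoconversion to control was 1.10 at no more than 5% mitochondrial UMIs, 1.31 with equal weights, 1.35 in thinned cells, 1.22 without the 10 richest cells, 1.01 without cells with other markers, 1.09 without the deepest cells, and 1.15 both with a lead of 3 UMIs and with classes set after thinning. Within P2ry12-dominant cells it was 1.08 without a mitochondrial limit, 1.26 with equal weights, 1.11 without cells with other markers, 0.855 with background taken off, 1.22 with a lead of 3 UMIs, 1.55 with classes set after thinning and 0.829 without the richest cell.

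Against background in photoconversion, kept cells turned to 0.391 with barcodes of 100 genes and over but under the cell limit and 0.811 with background of at most 10% mitochondrial UMIs, and stood at 1.22 without its 10 richest barcodes. Cst7-dominant cells turned to 0.496 and stood at 1.03 and 1.54, and P2ry12-dominant cells at 0.103, 0.214 and 0.321. In control, with background under 50 genes, of 100 genes and over, of at most 10% mitochondrial UMIs and without its 10 richest barcodes, kept cells stood at 1.48, 1.39, 1.002 and 1.253. Cst7-dominant cells stood at 2.08, 1.96, 1.41 and 1.77, and P2ry12-dominant cells at 0.516, 0.485, 0.350 and 0.438.

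Of the 12 leading correlates 7 stayed in thinned cells, 5 in P2ry12-dominant and 2 in Cst7-dominant cells. Lipoprotein genes past the limits between libraries numbered 8 of 32 measured from 20 UMIs, 1 of 7 from 500 UMIs and 0 of 22 at 1.5-fold, against 2 of 22. Between classes they numbered 10 of 27, 3 of 6 and 9 of 13 against 5 of 13 in photoconversion. In control they numbered 10 of 30, 3 of 6 and 10 of 16 against 6 of 16. Shares over all genes were not taken at these other limits, so the counts are not read as results about these genes. Cells with an Apoe UMI made up 85.3% of photoconversion and 77.2% of control cells after thinning, and 89.6% of control cells when the gene limit was doubled. At this depth 22 of the 44 lipoprotein genes fell below 100 UMIs and were not counted.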

Other observations

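Barcodes with at least 100 UMIs of which Apoe made up at least 10% were seen in photoconversion and not in control. They were 1 of 317 kept photoconversion cells, with 738 of 4564 UMIs, 3 of 90 barcodes with at least 100 but under 200 genes, 1 background barcode with 52 of 204 UMIs, and 1 barcode over the mitochondrial limit with 221 of 2186 UMIs. In control 0 barcodes of each kind reached that share, and the highest share among kept control cells was 8.23%. The difference was not tested.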
